A study of Cucumis sativus with 11 samples.

Results

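Leaves of salt-treated cucumber (Cucumis sativus) held 206 genes at raised levels whether or not silicon was in the solution, out of 20165 genes listed. These genes were chosen by their measured levels in the same 11 libraries that are described here. On the log2(RPKM + 1) scale, in which RPKM is a read number divided by gene length and by the reads mapped in the library, the lowest of the 6 salt-treated libraries had to lie above the highest of the 5 others. The mean also had to be at least 1 log2 unit higher in salt than in control leaves and at least 1 higher in salt plus silicon than in silicon leaves. Last, the mean with salt plus silicon had to stay above a difference of -0.5 from the mean with salt alone.

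All plants were seedlings of the cultivar JinYou 1 grown in Hoagland nutrient solution. Salt plus silicon plants (NaSi, 3 libraries) received 75 mM sodium chloride together with 0.3 mM silicon, and salt plants (Na, 3 libraries) received the sodium chloride alone. Silicon plants (Si, 2 libraries) received 0.3 mM silicon without sodium chloride, and control plants (CT, 3 libraries) neither. The silicon was sodium silicate, so both groups that received it also received its sodium. Young expanded leaves were taken 3 days after the start of treatment, and each library was made from 3 mixed leaves. Whether the leaves of a library came from separate plants or containers is not given, so p-values measure the spread between these libraries only. The series asks how silicon eases salt stress, and the genes described here are those that stayed raised when silicon was present.

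Sodium chloride in the root medium lowers the water available to roots, and sodium and chloride then build up in leaves. Leaves are known to answer with abscisic acid signalling, with compatible solutes such as proline and sugars, with transporters that move sodium into vacuoles or out of cells, and with enzymes that remove reactive oxygen. Silicon is taken up as silicic acid, and cucumber is known as a dicot that accumulates it. Genes are known here by ID alone: of 20165 IDs, 0 could be found in the reference table of 23999 cucumber genes. No function can therefore be given to a member, the tissue label could not be checked against leaf markers, and no sequence is shown.

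Libraries differed in ways that touch the choice of members. On the first principal component of all 17408 genes tested (31.6% of the variance), the silicon libraries lay at -98.7 and -86.9 and control library 1 at -45.4, while the other 8 libraries lay between -3.71 and 47.2. Between 1711 and 2397 genes were listed at 0 in a library. Depth is unknown. Across all tested genes the median of salt plus silicon minus silicon was 0.0, and it was 0.15 after quantile normalization. The median of salt minus control was 0.11, and -0.01 after median-of-ratios scaling. That of silicon minus control was 0.18 as deposited, -0.09 after quantile normalization and 0.01 with median-of-ratios factors, so its sign depends on the scaling. Differences of members stand beside these medians.

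The number of genes that met the rule was 167 without salt plus silicon library 3, 249 without silicon library 1, 205 without silicon library 2 and 227 without control library 1. Of the 20165 genes, 1132 had all 6 salt-treated libraries above all 5 others. Among these, 348 reached the bound in salt against control and 270 that in salt plus silicon against silicon, and 209 reached both. The bound on silicon took away only 3 further genes. Another 135 genes met all 3 bounds on means but had libraries that overlapped.

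The bounds fall within a continuous range. In Csa6G425130, the member nearest to overlap, the lowest salt-treated library lay 0.004 above the highest of the others, and in Csa5G219390, the nearest gene outside among those with no library at 0, the same difference was -0.007. Salt minus control was 1.011 in Csa3G852580, just inside, and 0.997 in Csa7G327730, just outside. Salt plus silicon minus silicon was 1.005 in Csa3G852580, just inside, and 0.986 in Csa7G428120, just outside. Salt plus silicon minus salt was -0.453 in Csa1G572420, just inside, and -0.509 in Csa3G894480, just outside. The median distance of a member from overlap was 0.65, and in 51 members it was more than 1, so that the lowest salt-treated library stood over 2-fold above the highest of the others.

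**Figure D1:**
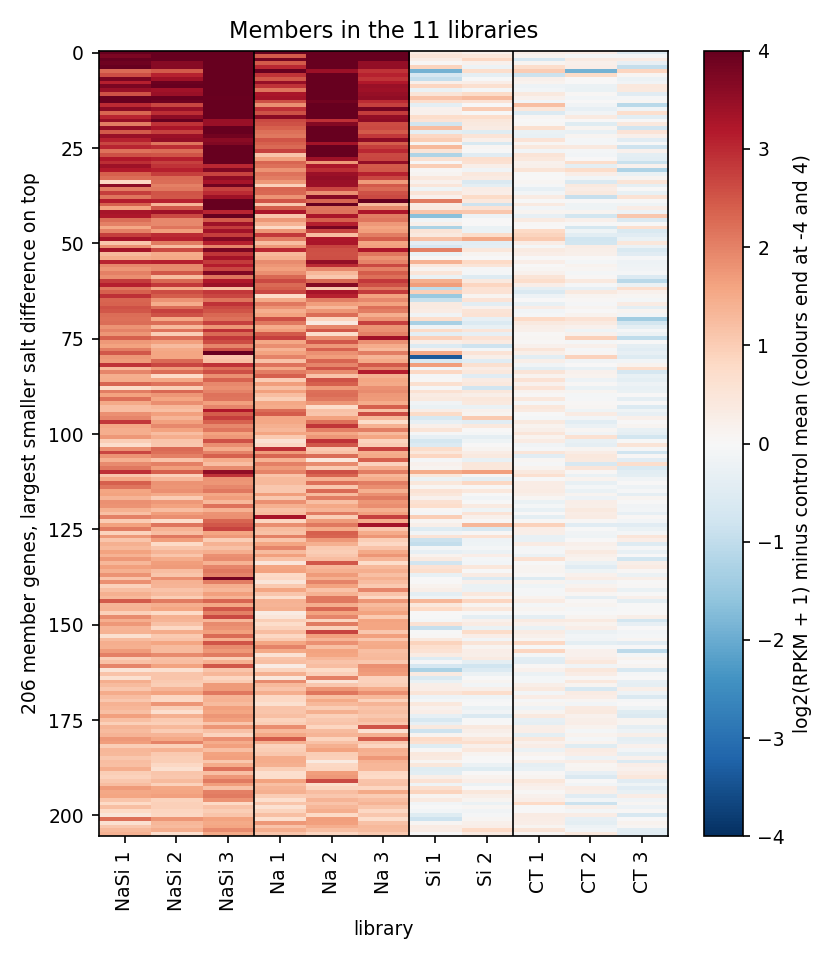
Levels of the 206 members (rows) in the 11 libraries (columns; NaSi salt plus silicon, Na salt, Si silicon, CT control), as log2(RPKM + 1) minus the control mean. The row with the largest of the smaller of its salt differences is on top, and the colours end at -4 and 4. The 6 salt-treated columns are raised in every row, as the rule requires, with salt plus silicon library 3 the highest of them in 93 rows.

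Most members were well expressed in salt-treated leaves. Over members the median level was 32.0, 29.7 and 55.6 RPKM with salt plus silicon, 25.2, 36.6 and 32.3 in the salt libraries, 8.17 and 8.24 in the silicon libraries, and 7.96, 7.46 and 6.39 in the control libraries. Library 3 of salt plus silicon stood above the other salt-treated ones, and the silicon and control libraries lay close together. By mean level over the 6 salt-treated libraries, 43 members (20.9%) were at 100 RPKM or more, where 8.38% of all tested genes were. Another 124 lay from 10 to under 100, and 39 lay under 10. The rule chose members by raised values in these same libraries, so the share at 100 RPKM or more is a description. The median level over the salt-treated libraries was 36.6 RPKM in members and 12.2 in tested genes. Over the silicon and control libraries the median was lower in members, at 7.82 RPKM, than in tested genes, at 12.4. In 32 members all 6 salt-treated libraries were over 100 RPKM. A difference on the log2(RPKM + 1) scale understates the fold of a low gene. In whole leaves, a change in the number of cells that express a gene and a change in RNA per cell cannot be told apart.

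Together the members made up 1.97%, 1.79% and 2.60% of the summed RPKM in salt plus silicon libraries and 1.64%, 2.15% and 1.97% in salt libraries. In silicon libraries they made up 0.555% and 0.498%, and in control libraries 0.488%, 0.483% and 0.415%. The mean was 2.12% ± 0.425 with salt plus silicon (SD, n = 3), 1.92% ± 0.259 with salt (n = 3), 0.526% ± 0.0403 with silicon (n = 2) and 0.462% ± 0.0408 in control (n = 3). The 2 salt-treated groups overlapped with each other. Their separation from the other 2 follows from the rule.

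**Figure D2:**
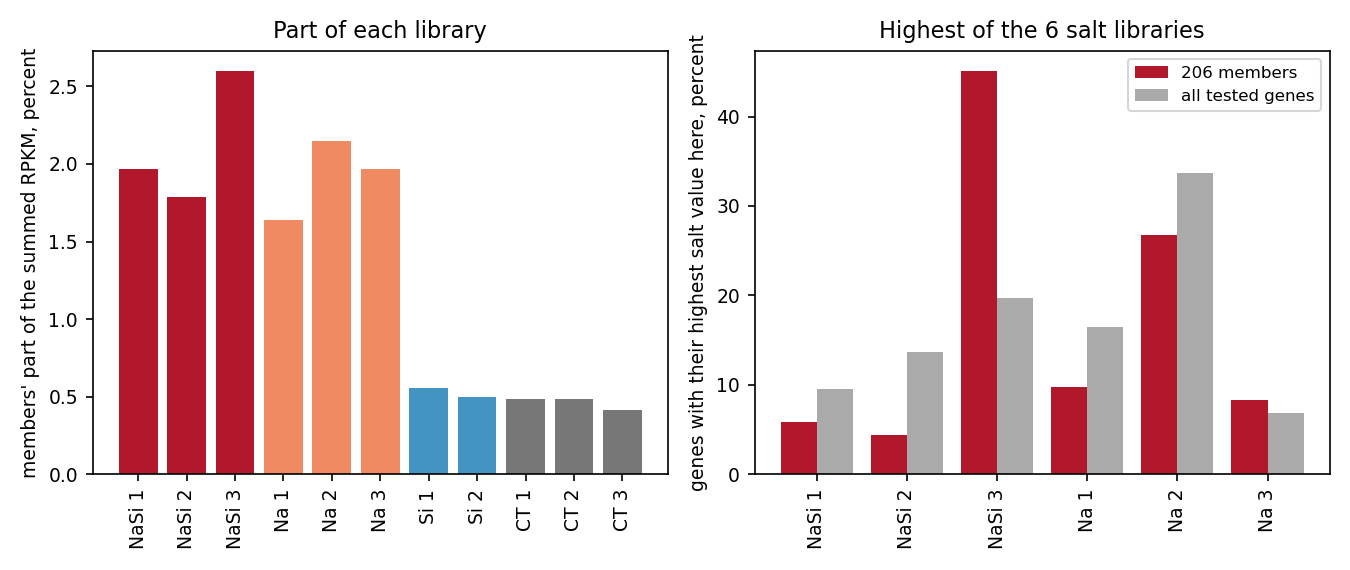
Left, the members' part of the summed RPKM of each library, in percent. Right, for each of the 6 salt-treated libraries, the percent of the 206 members and of all 17408 tested genes that had their highest salt-treated value in it; salt plus silicon library 3 holds 45.1% of members and 19.7% of tested genes.

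Csa7G037540 had the highest level of all members. It was at 1247, 1630.0 and 1561 RPKM in salt plus silicon libraries, 1087, 2553 and 2040.3 in salt libraries, 255 and 318 in silicon libraries, and 235, 289 and 199.6 in control libraries. Salt library 1 was the lowest of the salt-treated libraries, and the salt plus silicon libraries fell inside the range of the salt libraries. The mean was 7.86 times as high in salt as in control libraries and 5.17 times as high in salt plus silicon as in silicon libraries.

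Csa6G445140 came next. It was at 1466, 1266 and 1484 RPKM in salt plus silicon libraries, 893, 771 and 1086 in salt libraries, 636 and 307 in silicon libraries, and 178, 199 and 216 in control libraries. No 2 of the 4 groups overlapped, and each group with silicon lay above its counterpart without, although silicon library 1 came near salt library 2. The salt difference was 2.20 without silicon and 1.66 with it, both on the log2(RPKM + 1) scale.

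By the smaller of its salt differences on the log2(RPKM + 1) scale, Csa3G818250 came first and Csa1G181330 second among members with no library at 0. Ratios of mean RPKM rank otherwise, with 45.3 for salt over control in Csa3G133990, a gene under 1 RPKM in all 5 libraries without sodium chloride. Csa3G818250 was at 135, 129 and 214 RPKM in salt plus silicon libraries, 102, 196 and 128 in salt libraries, 7.79 and 11.9 in silicon libraries, and 3.53, 8.21 and 7.96 in control libraries. Its mean stood 21.7-fold higher in salt than in control and 16.2-fold higher in salt plus silicon than in silicon libraries. The salt-treated groups overlapped, as did silicon and control.

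Csa1G181330 was at 44.4, 37.4 and 86.3 RPKM in salt plus silicon libraries, 15.8, 96.0 and 34.2 in salt libraries, 2.15 and 2.48 in silicon libraries, and 2.35, 2.57 and 1.45 in control libraries. Its mean was 24.2-fold higher with salt plus silicon than with silicon and 22.9-fold higher with salt than in control. The salt libraries spread over a wide range, with library 1 the lowest of all 6 salt-treated libraries and library 2 the highest.

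The largest difference between salt and control means, 5.22 on the log2(RPKM + 1) scale, belonged to Csa1G572420, which is listed at 0 in control library 3 and was singled out after its values were seen. It was at 32.5, 24.6 and 69.6 RPKM in salt plus silicon libraries, 22.2, 188 and 34.4 in salt libraries, 0.839 and 0.668 in silicon libraries, and 0.724, 0.733 and 0 in control libraries. Salt library 2 stood far above the others. Of the members, 18 were listed at 0 in at least 1 library, never in a salt-treated one, and 16 were under 1 RPKM in all 5 libraries without sodium chloride.

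**Figure D3:**
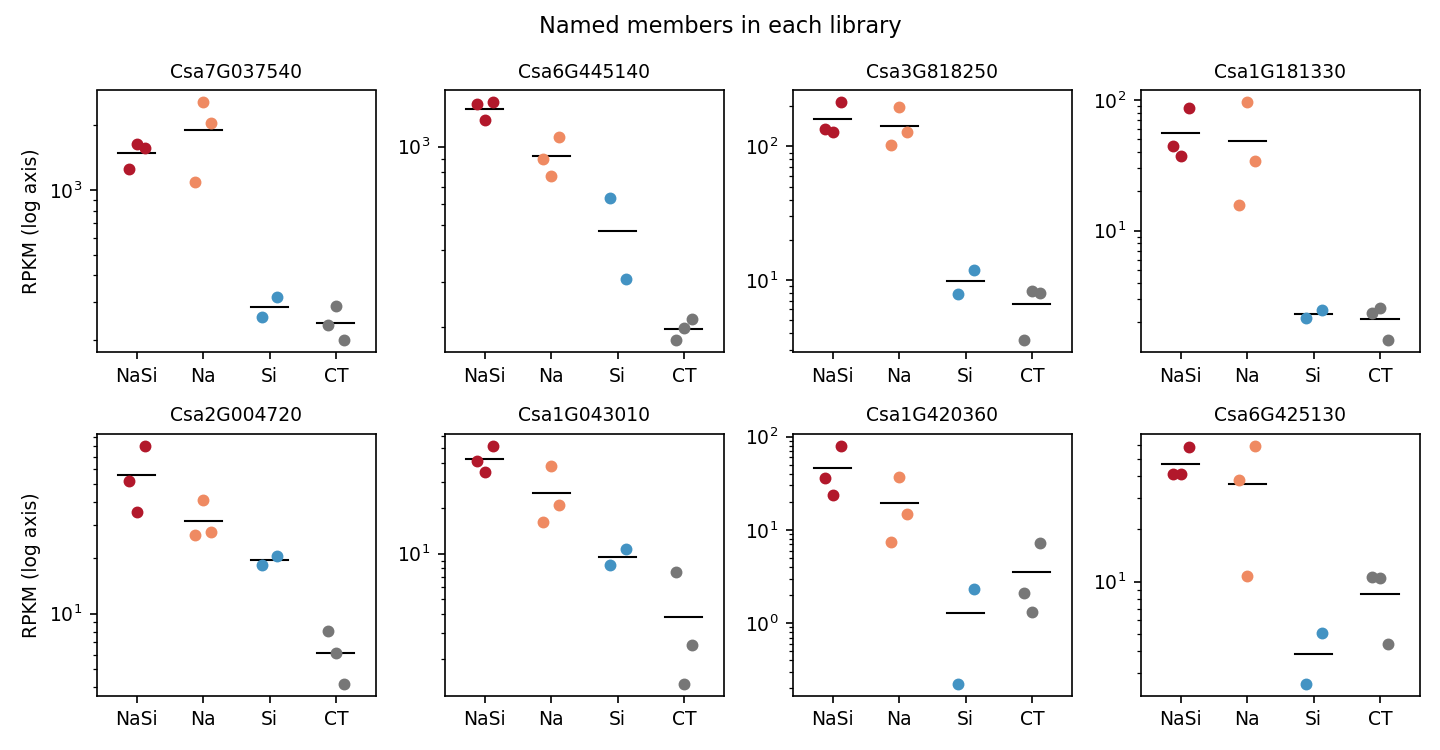
RPKM on a log axis of 8 named members in each library, in the order salt plus silicon (NaSi), salt (Na), silicon (Si) and control (CT); points are libraries and bars are group means. Csa3G818250 and Csa1G181330 show the widest distance between salt-treated and other libraries, while in Csa2G004720 silicon libraries at 18.3 and 20.6 RPKM stand above control libraries at 8.05, 6.16 and 4.18.

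On the values as deposited, the salt differences of members were of similar size with and without silicon. The difference between salt plus silicon and silicon leaves had a median of 1.68 over members (range 1.01 to 4.49), and that between salt and control leaves had a median of 1.69 (1.01 to 5.22). These bounds chose the members, so both values are descriptions. A difference of 2 or more was seen in 75 members with silicon and 69 without, and of 3 or more in 29 with silicon and 24 without. As ratios of mean RPKM over the 188 members with no library at 0, the median was 3.58 with silicon and 3.63 without. Scaling moved the log2 medians apart. They were 1.68 with silicon and 1.57 without after median-of-ratios scaling, against 0.01 and -0.01 in tested genes. After quantile normalization they were 1.85 and 1.6, against 0.15 and 0.02. As deposited, tested genes had 0.0 with silicon and 0.11 without.

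Member by member, the salt difference was larger with silicon in 102 (49.5%) and smaller in 104. It was larger with silicon in 40.7% of all tested genes. The salt difference with silicon minus that without had a median of -0.01 in members and -0.15 in tested genes. This value lay within 0.5 of 0 in 133 members (64.6%) and in 53.1% of all tested genes. The rule bounded both salt differences and salt plus silicon minus salt, so nothing is read from these shares. The 2 salt differences share no library. Across the 206 members they correlated at Pearson's r = 0.766 and Spearman's rho = 0.673, given as a description, since genes are not independent replicates and both were used in the choice. Members of 100 RPKM or more had median differences of 1.84 with silicon and 1.69 without, and those under 10 RPKM had 1.45 and 1.52.

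**Figure D4:**
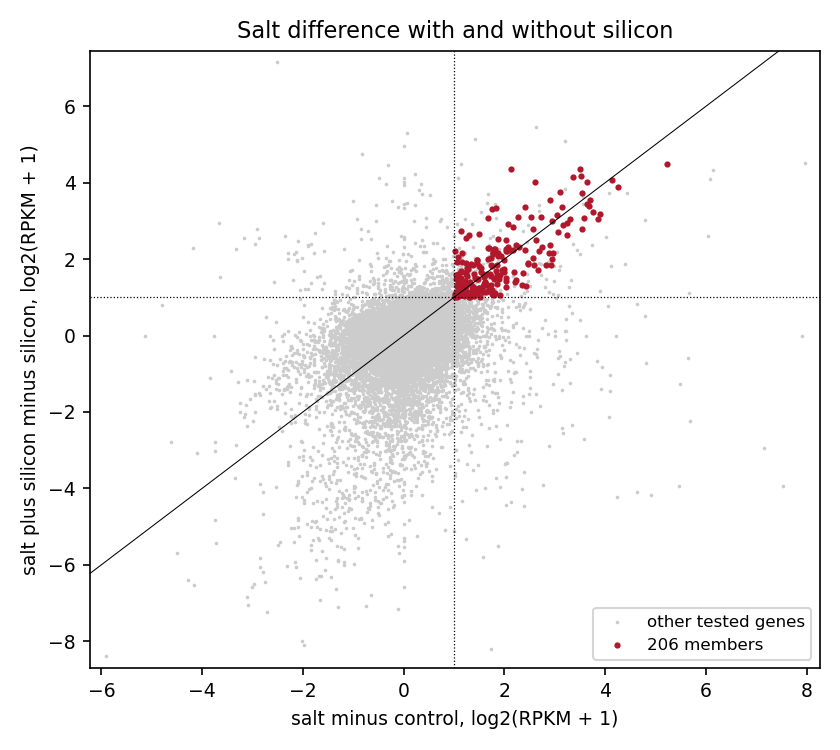
Difference between salt plus silicon and silicon libraries against that between salt and control libraries, both in log2(RPKM + 1), for 17408 tested genes; members are red, dotted lines mark the bounds of 1 and the solid line marks equality. Members lie on both sides of equality, with a median of 1.68 on the vertical and 1.69 on the horizontal axis.

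Among members with no library at 0, those farthest from equality varied among libraries. Csa1G420360 was at 35.8, 23.4 and 79.6 RPKM in salt plus silicon libraries, 7.35, 36.7 and 14.9 in salt libraries, 0.224 and 2.36 in silicon libraries, and 2.09, 1.33 and 7.16 in control libraries. Its salt difference was 4.36 with silicon and 2.14 without. Silicon library 1 was the lowest of all, control library 3 came close to salt library 1, and the 2 salt-treated groups overlapped.

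Csa3G844860 was at 217, 167 and 308 RPKM in salt plus silicon libraries, 68.7, 130 and 197 in salt libraries, 34.2 and 31.0 in silicon libraries, and 56.3, 49.3 and 59.0 in control libraries. The silicon libraries lay below all 3 control libraries, and the salt difference was 2.74 with silicon and 1.13 without.

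In the other direction, Csa6G501320, listed at 0 in control libraries 2 and 3, lay farthest, with a salt difference of 1.295 with silicon and 2.435 without. Among members with no library at 0, Csa3G874320 came first. Csa3G874320 was at 67.7, 79.4 and 93.6 RPKM in salt plus silicon libraries, 82.9, 128 and 91.1 in salt libraries, 24.4 and 18.6 in silicon libraries, and 7.92, 16.1 and 14.0 in control libraries. Its salt difference was 1.85 with silicon and 2.92 without. The salt-treated groups overlapped, and both silicon libraries were above every control library.

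Csa4G055450 was at 20.1, 17.9 and 17.5 RPKM in salt plus silicon libraries, 50.4, 9.28 and 33.4 in salt libraries, 9.23 and 4.99 in silicon libraries, and 2.98, 5.53 and 4.37 in control libraries. Salt library 2 fell below all 3 salt plus silicon libraries and almost met silicon library 1. Its salt difference was 1.32 with silicon and 2.34 without.

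Levels with salt plus silicon and with salt alone were close in most members, as in most tested genes. The median difference, salt plus silicon minus salt, was 0.12, and 169 members (82%) lay within 0.5 of 0, against 88.8% of all tested genes. Another 37 lay above 0.5 and 0 below -0.5, the last being fixed by the rule. Without salt plus silicon library 3 the median was -0.05, so its sign rests on that library. It was 0.02 without salt library 1, and 0.12 to 0.29 without each of the other 4 salt-treated libraries. All 3 salt plus silicon libraries lay above all 3 salt libraries in 13 members (6.31%), against 3.87% of tested genes. They lay below in 1 member (0.485%), against 2.48%. The rule bounded this difference, so nothing is read from these shares.

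Csa1G420360, described above, had the largest of these differences at 1.29. Csa2G070310 followed at 1.05, with 3.48, 6.39 and 27.7 RPKM in salt plus silicon libraries, 2.62, 4.45 and 4.40 in salt libraries, 1.03 and 0.373 in silicon libraries, and 0.404, 1.50 and 1.36 in control libraries. Salt plus silicon library 3 stood far above the rest, and libraries 1 and 2 of that group lay near the salt libraries. At the low end stood Csa1G572420 at -0.453, which is listed at 0 in control library 3. Among members with no library at 0, the lowest were Csa4G055450 at -0.43, and Csa6G405960, also at -0.43. Csa6G405960 was at 7.10, 9.04 and 11.8 RPKM in salt plus silicon libraries, 8.61, 21.2 and 10.9 in salt libraries, 2.92 and 3.37 in silicon libraries, and 3.99, 2.82 and 2.99 in control libraries, with salt library 2 above the rest.

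Levels were not even over the salt-treated libraries. Salt plus silicon library 3 was the highest of the 6 in 93 members (45.1%), against 19.7% of tested genes, and salt library 2 in 55 (26.7%), against 33.7%. Salt library 1 was the lowest in 83 members (40.3%), against 19.4% of tested genes. In 40 members (19.4%) both held at once, library 3 of salt plus silicon highest and library 1 of salt lowest, against 5.35% of tested genes. The rule sets a floor for the lowest of the 6 libraries and bounds the difference between the 2 group means, so these shares are a description.

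Relative to its own group mean, salt plus silicon library 3 lay 0.32 higher in the median member and 0.04 higher in the median tested gene. Salt library 1 lay at -0.26 in the median member and -0.03 in the median tested gene. Salt library 2 lay at 0.26 in the median member and 0.13 in the median tested gene. The median within-group SD on the log2 scale was 0.34 in members and 0.23 in tested genes with salt plus silicon, and 0.49 in members and 0.30 in tested genes with salt. It was 0.24 in members and 0.20 in tested genes with silicon, and 0.32 in both in control.

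Silicon alone against control was the only comparison of 2 groups that the rule did not bound, although it set an upper limit on both. By limma on all 11 libraries, with Benjamini-Hochberg adjustment over 17408 genes and a threshold of 0.05, 3 of 206 members (1.46%) were called higher with silicon, against 8.38% of all tested genes. None (0 of 206) was called lower, against 0.977%. At an unadjusted limma p under 0.05, 14 of 206 members were higher and 2 lower. Of all 17408 tested genes, 3482 were higher and 1071 lower, a larger share than in members in both directions. A gene raised by silicon alone could be a member only if salt raised it at least 1 log2 unit more, so a low share of calls is partly fixed by the rule. Members also had a larger median SE than tested genes, as given below, and its part in the share was not tested.

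The median difference between silicon and control was 0.15 in members and 0.18 in tested genes. It became 0.01 in both after median-of-ratios scaling. Both silicon libraries lay above all 3 control libraries in 46 members (22.3%), against 30.4% of tested genes, and below in 12 (5.83%), against 11.9%. The 95% interval of the difference lay within 1 log2 unit of 0 in 69 members (33.5%) and in 41.8% of tested genes. This is on the log2(RPKM + 1) scale, where 1 unit is more than 2-fold in RPKM for a low gene. For the other members a silicon difference of 1 log2 unit is not outside the interval. The width of an interval follows the SE, whose median was 0.37 in members and 0.29 in tested genes. The difference itself lay within 0.5 of 0 in 144 members (69.9%) and in 59.8% of tested genes. The rule set an upper limit on both groups, so this share is a description.

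**Figure D5:**
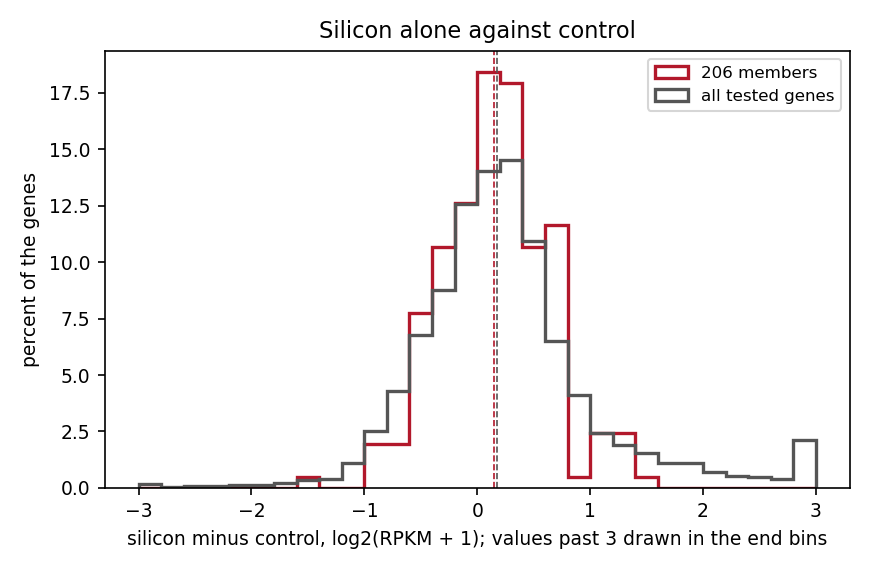
Distribution of silicon minus control, in log2(RPKM + 1), as percent of the 206 members and of all 17408 tested genes, with medians dashed at 0.15 and 0.18. Values past 3 in either direction are drawn in the end bins; all members lie between -1.58 and 1.55.

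Csa2G004720 had the largest such difference and was 1 of the 3 called. It was at 51.7, 35.3 and 80.4 RPKM in salt plus silicon libraries, 26.4, 40.9 and 27.5 in salt libraries, 18.3 and 20.6 in silicon libraries, and 8.05, 6.16 and 4.18 in control libraries. Silicon libraries stood clear of control and below every salt-treated library. The log2 difference, silicon minus control, was 1.55 ± 0.35 (SE, limma adjusted p = 0.026).

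Csa6G445140, with values given above, differed by 1.16 ± 0.29 (limma adjusted p = 0.035), with silicon libraries at 636 and 307 RPKM and control libraries at 178, 199 and 216. The third, Csa3G848150, is named because the calls are few and was picked after its values were seen. It was at 145, 113 and 134 RPKM in salt plus silicon libraries, 69.0, 114 and 89.6 in salt libraries, 65.8 and 48.0 in silicon libraries, and 32.9, 27.0 and 19.4 in control libraries, and silicon differed from control by 1.09 ± 0.27 (limma adjusted p = 0.0369). In each of the 3, all silicon libraries were above all control libraries.

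These calls rest on few libraries. Of 19 other fits, the call was lost in 6 for Csa2G004720, in 10 for Csa6G445140 and in 12 for Csa3G848150, including in each the fit of the 5 silicon and control libraries alone and the fit without silicon library 1. The number of members called higher was 1 when any single salt plus silicon library was left out, against 6.1% to 6.51% of all tested genes, and 8 without salt library 2, against 9.01%. It was 0 without silicon library 1, against 0.447% of tested genes, and 1 without silicon library 2, against 3.18%. It was 0 without control library 2, against 2.97%, and 0 without control library 3, against 3.79%. Without silicon library 2, 1 member was called lower, against 0.917% of tested genes. The difference in Csa6G445140 was 0.64 without silicon library 1.

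Csa1G043010 had the next largest difference with silicon, 1.34 ± 0.51, which did not pass the test (limma adjusted p = 0.13). It was at 40.9, 34.8 and 51.9 RPKM in salt plus silicon libraries, 16.2, 38.1 and 21.1 in salt libraries, 8.40 and 10.7 in silicon libraries, and 7.59, 1.37 and 2.47 in control libraries. Control library 1 lay close to the silicon libraries and far from the other 2 controls. Without it, the difference was 1.87 and passed the test (limma adjusted p = 0.0153), and over all 19 other fits the adjusted p ran from 0.0153 to 0.394.

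At the other end, silicon minus control was lowest in Csa3G732530, at -1.58 ± 0.85 (limma adjusted p = 0.279), with silicon library 1 listed at 0. Among members with no library at 0, it was lowest in Csa1G420360, at -0.94 ± 0.78 (limma adjusted p = 0.485). Csa6G425130 followed at -0.93 ± 0.62 (limma adjusted p = 0.38). Csa6G425130 was at 40.8, 41.1 and 58.3 RPKM in salt plus silicon libraries, 37.8, 10.7 and 59.2 in salt libraries, 2.62 and 5.11 in silicon libraries, and 10.7, 10.4 and 4.38 in control libraries. It was the member nearest to overlap, since salt library 2 lay just above control library 1, and its silicon and control libraries overlapped. The values of Csa1G420360 and Csa6G425130 moved in both directions when single libraries were left out. That of Csa1G420360 was -0.21 without silicon library 1, -1.67 without silicon library 2 and -0.40 without control library 3. That of Csa6G425130 was -0.55 without silicon library 1, -1.31 without silicon library 2 and -1.30 without control library 3.

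By the order of the 4 group means, 91 members (44.2%) ran from salt plus silicon over salt and silicon down to control. Another 44 had control above silicon with salt plus silicon on top, 42 had salt on top and silicon above control, and 29 had salt on top and control above silicon. The libraries of salt plus silicon and salt overlapped in all but 13 and 1 members, and those of silicon and control in all but 46 and 12, as counted above.

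The IDs are built to carry a place as well. In the cucumber naming scheme the character after Csa is the chromosome, and numbers run along it in steps of 10. Place and order were read from the IDs alone and could not be checked against an annotation here. Members made up between 0.871% (chromosome 5) and 1.19% (chromosome 3) of the listed genes of a numbered chromosome, against 1.02% of all. Of the members, 150 had the next number also listed, and in 14 of these (9.33%) that next gene was a member too. These pairs held 27 members in 13 runs, 1 of which was 3 genes long. The matching share over all 15354 genes with their next number listed is not given here, so no clustering is read from the 9.33%.

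The run of 3 was Csa1G527860, Csa1G527870 and Csa1G527880, chosen after their values were seen. Csa1G527860 was at 23.5, 29.9 and 57.1 RPKM in salt plus silicon libraries, 18.3, 67.5 and 33.9 in salt libraries, 5.20 and 8.39 in silicon libraries, and 5.96, 1.94 and 7.32 in control libraries. Csa1G527870 was at 65.2, 85.6 and 110 RPKM in salt plus silicon libraries, 35.1, 128 and 51.9 in salt libraries, 7.78 and 6.67 in silicon libraries, and 3.27, 3.16 and 5.54 in control libraries. Csa1G527880 was at 190.03, 173 and 246 RPKM in salt plus silicon libraries, 118, 251 and 224 in salt libraries, 16.7 and 31.1 in silicon libraries, and 20.7, 11.4 and 13.4 in control libraries.

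All 3 had their lowest salt-treated value in salt library 1 and their highest in salt library 2. Levels grew along the run in every salt-treated library, while silicon library 2 and control libraries 1 and 3 were lower in Csa1G527870 than in Csa1G527860. The libraries did not keep strand, so reads of overlapping neighbours, and reads that fit copies of a gene equally well, cannot be told apart in these values. The 124 tested genes that follow a member in number without being members had a median smaller salt difference of -0.10, against -0.20 over all tested genes.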

How the data were processed

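Leaf RNA of 11 libraries was analysed. Per the labels' protocols, libraries were built from poly(A)-selected, fragmented RNA and kept no strand. The authors deposited 1 RPKM value per gene and library, as the tables are named. TopHat2 was among the tools, per the submitters' processing notes; for its version, the counter, the genome build and the gene models, the sources used here give nothing. Ratios of values under 0.2 RPKM between libraries had no common step (the commonest ratio, to 3 decimals, covered at most 3.68% of genes), so reads could not be recovered as whole numbers, which a count test needs. A listed 0 can be a failed estimate. Identical values above 0 numbered at most 1 in any 2 libraries.

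Values were transformed to log2(RPKM + 1), with a pseudocount of 1, and the rule was applied to every gene. Differences between means on this scale understate changes of low genes. The test covered genes that reached 1 RPKM in at least 2 libraries (17408, all 206 members among them) for silicon against control with limma 3.58.1 in R 4.3.3: group means of all 11 libraries, mean-variance trend, 7 residual degrees of freedom, two-sided, Benjamini-Hochberg adjusted over all genes tested. SE and intervals come from this fit. Contrasts used by the rule were not tested. Tables were made with numpy 2.4.6 and pandas 2.3.3 under Python 3.11.15, figures with matplotlib 3.10.9, and the rule and fit were tested on simulated data.

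The members and lists were chosen with earlier results of these data known. Named are, among members with no library at 0, the 2 highest by level and by the smaller of the 2 salt differences, and the 2 highest and 2 lowest by silicon minus control, by salt plus silicon minus salt and by salt difference with minus without silicon. Because no ID could be paired with a name, 28 gene lists by product name were not used. Alternatives were a pseudocount of 0.1, median-of-ratios scaling and quantile normalization, no filter or a filter of 5 RPKM, robust moderation, the replicate number as a block, the silicon and control libraries fitted alone, and each library left out in turn.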

Additional observations from a re-analysis of the deposited data

How the results depend on the processing

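The rule gave 206 genes, and 274 with a pseudocount of 0.1, 177 after median-of-ratios scaling (170 of them among the 206) and 222 after quantile normalization (186 among the 206); with 1 library left out it gave 167 to 249. The 3 members called higher with silicon were 4 with the pseudocount of 0.1 (6.71% of all tested genes) and 4 with the filter of 5 RPKM (9.89%), 1 after median-of-ratios scaling, 1 after quantile normalization, 1 with a replicate block and 0 in the 5 libraries alone, where 186 members were tested, and 0 to 8 with 1 library left out (0.447% to 12.9%). Against these stood 5.94%, 4.78%, 5.45% and 0.56% of all tested genes for the 2 scalings, the block and the 5 libraries. The members called lower were 1 after quantile normalization, against 2.63% of all tested genes, and 0 to 1 with 1 library left out, against 0.0174% to 1.6%; the other alternatives gave 0. The cause was not tested.

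Same-numbered libraries of different groups are not said to share a plant or day. Their deviations from group means correlated between -0.20 and 0.16, with 4 of 15 pairs over 0.1. No values of differently numbered libraries stand beside these, so they cannot decide whether the numbers pair the libraries. The median of silicon minus control over members was -0.11 after quantile normalization, against -0.09 in tested genes, and 0.07 to 0.22 with 1 library left out. The medians of both salt differences moved by less than the spread between libraries under every alternative run, being 1.50 to 1.83 with silicon and 1.58 to 1.77 without when 1 library was left out, and those of salt plus silicon minus salt ran from -0.05 to 0.29. For 17 single genes, 294 of 323 alternatives kept the side of the threshold, 28 lost a call and 1 gained one (Csa1G043010 without control library 1). A fit that leaves 1 silicon library takes its spread from the other groups. Precision is limited by the 2 silicon libraries: the median SE of silicon minus control was 0.37 over members and 0.29 over tested genes.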
